A study of Homo sapiens with 8 samples.

Results

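The 9 genes described here encode the core of MHC class I antigen presentation. They are the heavy chains HLA-B, HLA-C and HLA-E, the light chain B2M, the peptide loading genes TAP1, TAP2 and TAPBP, and the immunoproteasome genes PSMB8 and PSMB9. They were chosen by name, with earlier results of these data known, and are 9 of the 78932 gene identifiers in the tables. RNA came from HCT116, a human colorectal cancer line, in which NUDT21 carries a dTAG degradation tag. NUDT21 encodes a subunit of a cleavage factor that helps to choose poly(A) sites, and dTAGV1 is a degrader that brings the tagged protein to a ubiquitin ligase. All 8 libraries carried the tag and received JTE-607, an inhibitor of CPSF3, the endonuclease of the 3′ end cleavage machinery. Of these, 4 also received DMSO, the solvent, and 4 received dTAGV1. Doses, treatment times and whether the line is 1 clone are not given in the sources used here, and no library without JTE-607 was analysed here. Libraries were made with a kit that primes on poly(A) tails, so reads are expected near transcript 3′ ends. Gene length therefore does not enter the counts. A change in the poly(A) sites used could also alter a count, and was not told apart from a change in RNA amount. Rises and falls below are thus of counted reads.

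Class I molecules show peptides from inside the cell to CD8 T cells. Proteasomes cut proteins into peptides, and PSMB8 and PSMB9 are catalytic subunits that interferon brings in to replace the constitutive subunits PSMB5 and PSMB6. TAP1 and TAP2 form the transporter that moves peptides into the endoplasmic reticulum, and TAPBP encodes tapasin, which bridges the transporter to empty heavy chains. A heavy chain reaches the surface only when bound to B2M and a peptide. HLA-B and HLA-C are classical, highly polymorphic heavy chains, whereas HLA-E is nearly invariant and is read by NK cell receptors. Class I promoters are known to respond to interferon through IRF factors and to NLRC5, a transactivator that works with RFX, CREB and NFY proteins.

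Promoter sequences of 5 members are shown because these elements are what the class I genes are known to share. They are the 250 bases before the RefSeq start on GRCh38.p14, read 5′ to 3′ on the strand of the gene, and they are the reference sequence, not that of HCT116. Capitals mark matches on either strand to the interferon response core (GAAA, any 2 bases, GAAA), the NFY-type box CCAAT or the CREB-type core TGACG.
B2M, chr15:44711267-44711516, plus strand: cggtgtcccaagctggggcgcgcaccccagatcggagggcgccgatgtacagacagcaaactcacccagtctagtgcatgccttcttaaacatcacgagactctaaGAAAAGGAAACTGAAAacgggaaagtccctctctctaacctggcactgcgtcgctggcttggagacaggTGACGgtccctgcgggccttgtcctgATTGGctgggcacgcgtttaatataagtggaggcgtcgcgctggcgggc
HLA-C, chr6:31272093-31272342, minus strand: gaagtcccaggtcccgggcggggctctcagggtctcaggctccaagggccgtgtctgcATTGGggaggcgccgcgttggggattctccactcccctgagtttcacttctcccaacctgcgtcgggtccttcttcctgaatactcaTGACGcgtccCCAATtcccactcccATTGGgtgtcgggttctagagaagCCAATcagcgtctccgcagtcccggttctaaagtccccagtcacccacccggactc
HLA-B, chr6:31357180-31357429, minus strand: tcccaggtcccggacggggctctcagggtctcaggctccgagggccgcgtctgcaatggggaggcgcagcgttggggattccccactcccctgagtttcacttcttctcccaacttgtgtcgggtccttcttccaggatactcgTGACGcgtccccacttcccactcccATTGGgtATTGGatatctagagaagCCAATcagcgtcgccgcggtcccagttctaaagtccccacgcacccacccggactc
TAP1, chr6:32853705-32853954, minus strand: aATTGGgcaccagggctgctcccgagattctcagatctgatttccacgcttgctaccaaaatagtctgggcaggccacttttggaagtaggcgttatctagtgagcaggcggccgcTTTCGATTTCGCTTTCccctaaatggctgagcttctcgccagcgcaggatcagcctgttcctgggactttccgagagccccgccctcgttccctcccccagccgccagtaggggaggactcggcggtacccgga
PSMB9, chr6:32853942-32854191, plus strand: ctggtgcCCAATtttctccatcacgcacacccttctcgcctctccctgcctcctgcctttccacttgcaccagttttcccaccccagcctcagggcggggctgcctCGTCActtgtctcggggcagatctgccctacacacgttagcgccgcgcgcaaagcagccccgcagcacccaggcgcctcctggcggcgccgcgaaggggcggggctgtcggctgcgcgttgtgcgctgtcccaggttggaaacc
B2M held 2 overlapping matches to the interferon core, 1 CCAAT and 1 TGACG. HLA-C held 4 CCAAT matches and 1 TGACG, HLA-B held 3 and 1, and neither held the interferon core as spelled here in this window, which says nothing of other spellings. The first TAP1 start held 2 overlapping matches to the interferon core, and it lies 487 bases from that of PSMB9, from which it is transcribed divergently. PSMB9 held 1 CCAAT and 1 TGACG but not the interferon core. Of the members not printed, TAPBP had 2 overlapping matches to that core and TAP2 had 1, with 1 TGACG. Neither PSMB8 window nor the second TAP1 window held the core, and 1 PSMB8 window held a TGACG. Among all 35116 promoter windows of this length, 3.02% held the interferon core, 32.0% held CCAAT and 21.2% held TGACG. A match is a string of letters and not a measured binding site. The table held promoters for 8 members, and no sequence is given for HLA-E.

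Libraries held 3447842 to 4291256 reads counted to genes on the sense strand, and CPM below means counts per 1000000 of these after scaling. NUDT21, the tagged gene, fell from 32.2 ± 2.81 to 8.25 ± 2.62 CPM (SD, n = 4 each). The 6 epithelial markers were present, with a summed level of 1542 to 1787 CPM in DMSO libraries and 1224 to 1322 in dTAGV1 libraries, although VIL1 was too low to test. The 13 markers of leukocytes and class II antigen-presenting cells summed to 4.82 to 7.65 CPM with DMSO and 1.81 to 7.09 with dTAGV1, and 12 of them were too low to test. Fibroblast markers summed to 15.4 to 19.9 and 11.2 to 15.3 CPM, nearly all of it COL1A1, and endothelial markers to 1.64 to 3.20 and 0.589 to 0.850 CPM. The part of other cell types in the values below was not tested.

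Few reads were counted to these genes in either group. Of the 9 members, 3 had enough reads to be tested (HLA-C, B2M and PSMB9) and 6 did not. Over all 8 libraries together, HLA-B had 60 reads, HLA-E 49, TAPBP 36, TAP1 12, PSMB8 1 and TAP2 none. The 3 tested members had 1439 reads (B2M), 257 (PSMB9) and 156 (HLA-C). A count of 0 in a library allows up to 3 reads by counting error alone, or 0.699 to 0.870 per 1000000 sense reads before scaling.

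**Figure D1:**
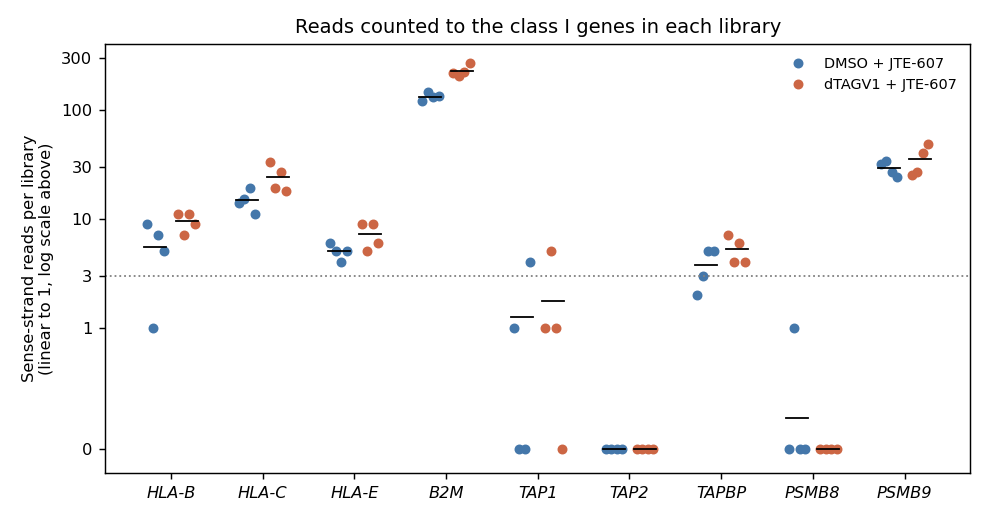
Reads on the sense strand (y axis, linear up to 1 and logarithmic above) for the 9 members, with 1 point per library and a bar at each group mean. The dotted line marks 3 reads. B2M is the only member whose groups stand apart, TAP2 sits at 0 in all 8 libraries, and PSMB8 has 1 read in 1 library.

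The low counts were shared by the chromosomal neighbourhood. Of the members, 8 lie in the MHC on chromosome 6. Between the start of HLA-F and the end of TAPBP (chr6:29722775-33314387, GENCODE 29 on GRCh38), 17 of 141 other protein-coding genes, or 12.1%, had enough reads to test. Outside this interval 53.9% of protein-coding genes did, and 54.8% did on the rest of chromosome 6. In the interval 56.0% had no read in any library, against 24.8% outside. Genes of general cell function were among the low ones. TUBB, which encodes a major beta-tubulin, had 5 reads over the 8 libraries, LSM2, a spliceosome gene, had 6, and MRPS18B, a mitochondrial ribosome gene, had 15. Others there were well counted, with 35308 reads for RPS18, 5935 for PPP1R10, 4912 for BRD2 and 4310 for ABCF1. This interval and these genes were chosen after their values were seen.

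Repeats inside the reference transcripts covered little of the members. Of all 50-base windows in the last 500 bases of their protein-coding transcripts in GENCODE 29, 7.88% of those of HLA-C and 2.81% of those of HLA-B occurred in another gene. For the other 7 members, and for TUBB, LSM2 and MRPS18B, the share was 0. Among the well-counted genes of the interval, the share was 48.3% for RPS18 and 0 for BRD2. Reads that fit more than 1 locus, which are counted to no gene, made up 11.2% ± 0.234 (SD, n = 4) of those mapped in the DMSO group and 10.8% ± 0.226 (SD, n = 4) in the dTAGV1 group. Whether the authors' genome held alternate copies of the MHC is not given in the sources used here, and the part of such copies in the low counts was not tested. The levels of the 8 MHC members are therefore those of the reads that were counted, and a count near 0 does not show that a gene was silent.

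**Figure D2:**
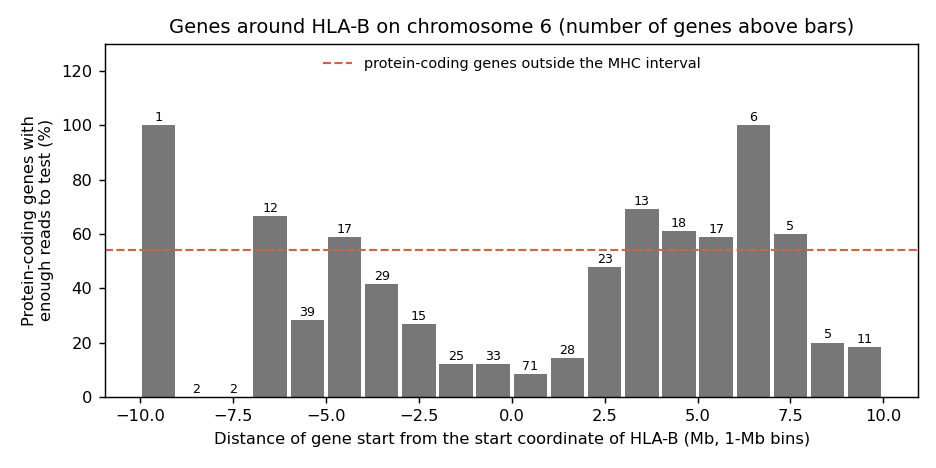
Share of protein-coding genes with enough reads to test (y axis, percent) in 1-Mb bins along chromosome 6, by distance of the gene start from the start coordinate of HLA-B, with the number of genes above each bar. The share is 8.45% in the bin that begins at HLA-B, and the dashed line marks the 53.9% of genes outside the MHC interval.

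B2M, the light chain shared by all class I heavy chains, rose upon dTAGV1. It is a protein-coding gene on the plus strand of chromosome 15 (ENSG00000166710, chr15:44711487-44718877, GENCODE 29), outside the MHC. DMSO replicates 1 to 4 had 119, 145, 131 and 132 reads of it, and dTAGV1 replicates 1 to 4 had 216, 203, 223 and 270. Every dTAGV1 library lay above every DMSO library. Levels were 33.8 ± 1.38 CPM (SD, n = 4) in the DMSO group and 63.0 ± 2.16 CPM (SD, n = 4) in the dTAGV1 group. This is a 1.87-fold rise with a 95% interval of 1.62 to 2.15, or 0.90 (SE 0.10) in log2 units (edgeR, Benjamini-Hochberg adjusted p = 2.62e-08). Across all genes tested, 57.9% differed, 29.4% upwards, and the groups did not overlap for 50.9%, of which those higher with dTAGV1 made up 25.8% of all genes. A change of this kind was thus common in the comparison. By counted reads, the DMSO level of B2M stood at percentile 56.2 of the tested genes, which need not be its rank in RNA abundance. Of 13 other protein-coding genes within 500 kb, 6 had enough reads to test.

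HLA-C, a classical heavy chain, also passed the test, but on few reads and not under every way of counting. It lies on the minus strand of chromosome 6 (ENSG00000204525, chr6:31268749-31272130) and overlaps the annotated span of HLA-B on that strand. Its counts were 14, 15, 19 and 11 with DMSO, and 33, 19, 27 and 18 with dTAGV1. The highest values came from dTAGV1 replicates 1 and 3, and the groups overlapped. Levels were 3.81 ± 0.968 and 6.83 ± 2.27 CPM (SD, n = 4 each). This is a 1.78-fold rise with a 95% interval of 1.17 to 2.69, or 0.83 (SE 0.29) in log2 units (edgeR, Benjamini-Hochberg adjusted p = 0.0172). The call was lost without DMSO replicate 4 (log2 fold change 0.69, edgeR adjusted p = 0.0658), without dTAGV1 replicate 1 (0.63, edgeR adjusted p = 0.0886) or without dTAGV1 replicate 3 (0.73, edgeR adjusted p = 0.0577). It was also lost with DESeq2 (0.82, DESeq2 adjusted p = 0.0634).

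Counting reads irrespective of strand separated both genes. In the layout of STAR, this count leaves out reads that also lie over a gene on the other strand. For HLA-C it kept 40 of 59 reads with DMSO and 44 of 97 with dTAGV1, and the log2 fold change fell to 0.22 (edgeR, Benjamini-Hochberg adjusted p = 0.639). Most of the difference in HLA-C thus lay in the reads that this count leaves out, which were 19 with DMSO and 53 with dTAGV1. For B2M it kept 113 of 527 reads and 251 of 912, and the log2 fold change was 1.23. GENCODE 29 lists no gene opposite HLA-C or B2M, and the annotation the authors used is not given in the sources used here, so what lies opposite was not identified. None of the 9 members had a read on its opposite strand in any of the 8 libraries, so no opposite-strand test was possible.

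**Figure D3:**
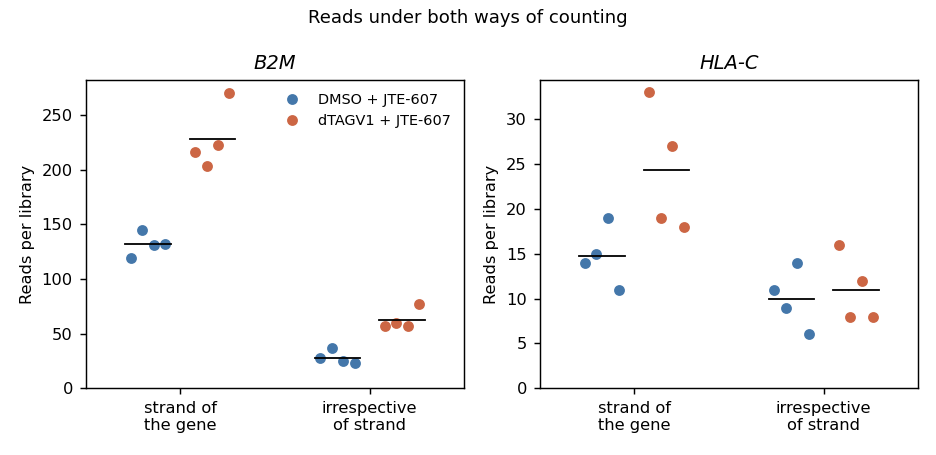
Reads per library (y axis) for B2M and HLA-C, counted on the strand of the gene or irrespective of strand, with 1 point per library and a bar at each group mean. The B2M groups stand apart under both counts, whereas those of HLA-C lie between 6 and 16 reads and overlap when strand is ignored.

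HLA-B and HLA-E, the other heavy chains, were not tested because of low counts. HLA-B (ENSG00000234745, chr6:31269491-31357188, minus strand) had 9, 1, 7 and 5 reads with DMSO and 11, 7, 11 and 9 with dTAGV1. The groups overlapped, and 1 DMSO library set the lower end with a single read. HLA-E (ENSG00000204592, chr6:30489467-30494205, plus strand) had 6, 5, 4 and 5 reads with DMSO and 9, 5, 9 and 6 with dTAGV1, which also overlapped. In the fit without a filter on low counts, the log2 fold change was 0.86 for HLA-B (95% interval -0.04 to 1.75, edgeR adjusted p = 0.175). For HLA-E it was 0.61 (95% interval -0.36 to 1.59, edgeR adjusted p = 0.424). Both intervals reach from no change to more than a doubling, so these counts do not settle a direction.

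The heavy chains were also set against B2M within each library, which removes the scaling between libraries. The log2 ratio of summed HLA-B, HLA-C and HLA-E reads to B2M reads was -2.38 ± 0.37 (SD, n = 4) in the DMSO group and -2.49 ± 0.45 (SD, n = 4) in the dTAGV1 group. The difference of -0.11 was smaller than the spread between replicates (exact permutation, 2-sided p = 0.686, and 0.686 when adjusted over 2 ratios). The smallest unadjusted p this design allows is 0.0286. The difference was -0.74 with counts irrespective of strand, and it lay between -0.27 and 0.06 when each library was left out, with its sign turned to 0.06 without dTAGV1 replicate 4 and to 0.0078 without DMSO replicate 1. It was -0.04 without dTAGV1 replicate 2, -0.02 without DMSO replicate 3, -0.27 without dTAGV1 replicate 1, -0.24 without DMSO replicate 2, -0.19 without DMSO replicate 4 and -0.20 without dTAGV1 replicate 3, so these reads give no direction for this ratio.

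The peptide loading members gave almost no reads. TAP1 (ENSG00000168394, chr6:32845209-32853978, minus strand) had 1, 0, 0 and 4 reads with DMSO and 1, 5, 1 and 0 with dTAGV1. Its partner TAP2 (ENSG00000204267, chr6:32821833-32838780, minus strand) was listed at 0 throughout. TAPBP (ENSG00000231925, chr6:33299694-33314387, minus strand) had 2, 3, 5 and 5 reads with DMSO and 7, 4, 6 and 4 with dTAGV1. No group of these genes stood apart. Without the filter the log2 fold change was 0.55 for TAP1 (95% interval -1.35 to 2.46, edgeR adjusted p = 0.700) and 0.56 for TAPBP (95% interval -0.57 to 1.70, edgeR adjusted p = 0.465).

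Of the immunoproteasome pair, only PSMB9 could be followed. PSMB9 (ENSG00000240065, chr6:32844136-32859585, plus strand) had 32, 34, 27 and 24 reads with DMSO and 25, 27, 40 and 48 with dTAGV1. The dTAGV1 libraries split, with replicates 3 and 4 above all DMSO libraries and replicates 1 and 2 among them. Unmapped reads split likewise, at 30.3% and 29.9% of reads in dTAGV1 replicates 1 and 2 and 24.9% and 20.4% in replicates 3 and 4. They made up 27.7% to 28.9% in DMSO libraries. Whether this bears on the PSMB9 counts was not tested. Levels were 7.52 ± 1.23 and 9.59 ± 2.33 CPM (SD, n = 4 each). The log2 fold change of 0.36 did not pass (95% interval -0.10 to 0.82, edgeR, Benjamini-Hochberg adjusted p = 0.170). PSMB8 (ENSG00000204264, chr6:32840717-32844703, minus strand) had 1 read, in DMSO replicate 2, and no fold change is given for it.

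PSMB9 was compared with PSMB6, the constitutive subunit whose place it takes. PSMB6 had a level of 277 ± 6.12 CPM (SD, n = 4) in the DMSO group and 271 ± 13.6 CPM (SD, n = 4) in the dTAGV1 group, and its log2 fold change of -0.03 did not pass (edgeR, Benjamini-Hochberg adjusted p = 0.710). The log2 ratio of PSMB9 to PSMB6 was -5.19 ± 0.22 (SD, n = 4) in the DMSO group and -4.83 ± 0.36 (SD, n = 4) in the dTAGV1 group. The groups overlapped, and the difference of 0.36 did not pass the test (exact permutation, 2-sided p = 0.2, and 0.4 when adjusted over 2 ratios).

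By counted reads the order of the members in DMSO libraries was B2M, PSMB9, HLA-C, HLA-B, HLA-E, TAPBP, TAP1, PSMB8 and TAP2. B2M lay above all others in every library. With DMSO the lowest PSMB9 level, 5.93 CPM, lay above the highest of HLA-C, 5.07 CPM, whereas HLA-B, HLA-E and TAPBP overlapped one another. Since reads in the MHC were counted so unevenly, this order is not one of RNA abundance.

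Among the genes whose profile over the 8 libraries was most like that of B2M were LAPTM4B and ATP6AP1. The measure was the root mean square distance in log2 CPM after centring on the DMSO mean, which was 0.0561 and 0.0619 among 4245 genes with at least 50 CPM. LAPTM4B, a lysosomal membrane protein gene, went from 174 to 331 CPM, and ATP6AP1, an accessory gene of the vacuolar proton pump, from 80.3 to 146.

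The rest of the pathway lies mostly outside the MHC and was better counted. One list held 16 other genes for peptide loading, trimming and folding, most but not all acting in the endoplasmic reticulum. Of these, 15 were tested, of which 9 rose, none fell and 6 did not pass. Their median log2 fold change was 0.32, against 0.01 over all genes tested. The share called was 60.0%, near the 57.9% of all genes tested. Of all genes tested, 29.4% rose, and the groups did not overlap in CPM for 50.9%. ERAP2 and ERAP1, the aminopeptidases that trim peptides to length for class I, rose most. ERAP2 went from 8.63 ± 2.15 to 22.6 ± 0.777 CPM and ERAP1 from 5.05 ± 0.516 to 11 ± 2.65 (SD, n = 4 each), and the groups of neither overlapped. In log2 units these are rises of 1.37 (SE 0.18, edgeR adjusted p = 3.21e-07) and 1.12 (SE 0.23, edgeR adjusted p = 0.000177). The chaperones that hold heavy chains and the loading complex rose less. PDIA3 had a log2 fold change of 0.71 ± 0.08 (SE), CALR 0.66 ± 0.08 and CANX 0.52 ± 0.09, with edgeR adjusted p-values of 1.06e-07, 1.05e-07 and 1.91e-05. These chaperones also fold many other glycoproteins.

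Of 14 genes that supply peptides in the cytosol, 13 were tested, of which 1 rose, 5 fell and 7 did not pass. Their median log2 fold change was -0.18, and 28.5% of all genes tested were lower with dTAGV1. The share called was 46.2%, against 57.9% of all genes tested. THOP1, a peptidase that destroys short peptides, fell from 85.5 ± 7.2 to 42.1 ± 5.62 CPM (SD, n = 4 each), in log2 units -1.02 (edgeR, Benjamini-Hochberg adjusted p = 7.69e-09). PSME3, a nuclear proteasome activator, had one of -0.77 (edgeR, Benjamini-Hochberg adjusted p = 6.83e-08). PSMB5, the constitutive counterpart of PSMB8, went from 179 ± 4.05 to 135 ± 17.5 CPM, in log2 units -0.41 (edgeR, Benjamini-Hochberg adjusted p = 0.000201). TPP2, a peptidase that acts after the proteasome, rose by 0.36 (edgeR, Benjamini-Hochberg adjusted p = 0.00204). PSMB7, the third constitutive catalytic subunit, had a value of -0.20 (edgeR, Benjamini-Hochberg adjusted p = 0.0725). It passed in 7 of 16 alternatives, among them the fit without dTAGV1 replicate 4 (-0.29, edgeR adjusted p = 0.00942). PSMB10, the immunoproteasome counterpart of PSMB7, had 3 reads in all.

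Among 27 regulators of class I genes, 24 were tested, of which 14 rose and 4 fell, or 75.0% called, with a median of 0.35. The number called, 18 here, was 13 with DESeq2 and 14 to 17 when a library was left out. Over all genes tested, 57.9% were called, 29.4% rose, and the groups did not overlap in CPM for 50.9%. IRF1, an interferon-induced activator of class I promoters, had 266, 244, 252 and 235 reads with DMSO and 679, 528, 529 and 620 with dTAGV1. Its level rose from 64.2 ± 7 to 164 ± 20 CPM (SD, n = 4 each), 2.55-fold with a 95% interval of 2.22 to 2.92 (edgeR, Benjamini-Hochberg adjusted p = 1.33e-11). NLRC5, the class I transactivator, had 51, 45, 59 and 36 reads against 66, 79, 57 and 85, and its groups did not overlap in CPM. It rose by 0.69 (SE 0.18) in log2 units (edgeR, Benjamini-Hochberg adjusted p = 0.00193). IFNGR1, a chain of the interferon gamma receptor, rose by 1.32 (edgeR, Benjamini-Hochberg adjusted p = 2.11e-08).

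The decreases in this list were led by RFXAP and IFNAR2. RFXAP, part of the RFX complex that NLRC5 works with, fell from 5.76 ± 1.17 to 3.20 ± 1.44 CPM (SD, n = 4 each), in log2 units -0.80 (edgeR, Benjamini-Hochberg adjusted p = 0.0275). The call was lost without DMSO replicate 2 (-0.68, edgeR adjusted p = 0.0962), without dTAGV1 replicate 1 (-0.79, 0.0506), 2 (-0.63, 0.0894) or 3 (-0.73, 0.0702), and with DESeq2 (-0.84, 0.0836). IFNAR2, a chain of the type I interferon receptor, had a log2 fold change of -0.76 (edgeR, Benjamini-Hochberg adjusted p = 9.67e-05), which turned to 0.0483 when strand was ignored (edgeR adjusted p = 0.911).

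Class I-like molecules moved both ways. Of 15, 8 were tested, 2 rose and 2 fell, with a median log2 fold change of 0.11. MICA, a stress ligand of the NKG2D receptor inside the MHC interval, rose from 5.30 ± 1.23 to 12.2 ± 2.38 CPM (SD, n = 4 each), in log2 units 1.21 (edgeR, Benjamini-Hochberg adjusted p = 6.04e-05). MR1, which presents vitamin metabolites and pairs with B2M, rose by 0.95 (edgeR, Benjamini-Hochberg adjusted p = 6.38e-05). ULBP3, another NKG2D ligand, fell by 0.61 on the log2 scale (edgeR, Benjamini-Hochberg adjusted p = 7.13e-05). HFE, which binds B2M and regulates iron uptake, had a value of -0.69 (edgeR, Benjamini-Hochberg adjusted p = 0.0116), and it lost its call without DMSO replicate 2 (-0.47, edgeR adjusted p = 0.0928).

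Of 12 genes of class I turnover and trafficking, 10 were tested, 3 rose and 3 fell, with a median of 0.07. MARCHF9, a ubiquitin ligase that can remove class I from the surface, fell from 31.4 ± 3.56 to 11.6 ± 1.95 CPM (SD, n = 4 each), in log2 units -1.42 (edgeR, Benjamini-Hochberg adjusted p = 2.04e-08). SUSD6, part of a complex that sends class I to degradation, rose from 20.6 ± 3.56 to 48.4 ± 2.97 CPM, in log2 units 1.23 (edgeR, Benjamini-Hochberg adjusted p = 1.10e-08). MARCHF8, a related ligase, rose by 1.05 (edgeR, Benjamini-Hochberg adjusted p = 0.00517), and RAB11A, a gene of recycling endosomes, had a value of -0.39 (edgeR, Benjamini-Hochberg adjusted p = 0.000107). In these lists 46.2% to 75.0% of tested genes were called, around the 57.9% of all genes.

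**Figure D4:**
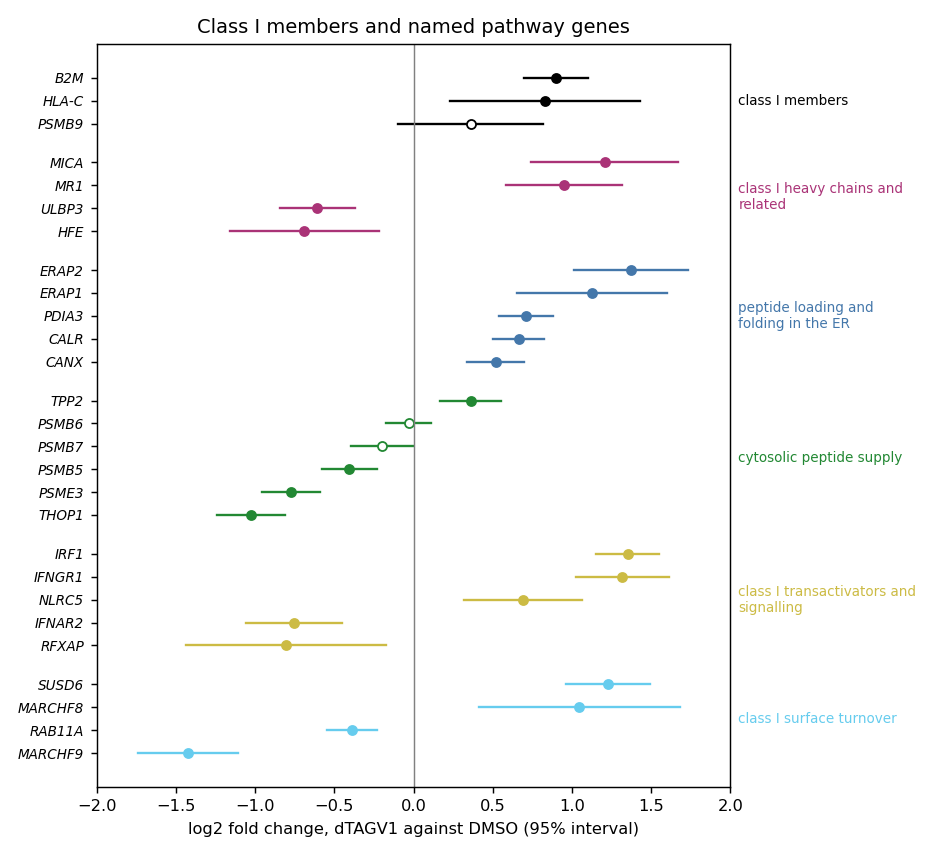
Log2 fold change of dTAGV1 against DMSO with its 95% interval (x axis) for the 3 tested members and the named pathway genes (y axis), coloured by list. Filled points passed the test and open points did not. B2M has a narrow interval from 0.70 to 1.10, whereas that of HLA-C reaches from 0.23 to 1.43 and that of PSMB9 crosses 0.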

How the data were processed

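Poly(A) RNA of 8 HCT116 libraries, made with the Lexogen QuantSeq forward kit, was compared. The authors deposited raw counts, 1 whole number per gene and strand setting, laid out as STAR writes them. The authors' processing used FastQC, fastp, STAR, HTSeq and DESeq2 on GRCh38, per the submitters' processing notes, which give no role, and the annotation is not given in the sources used here. Counts on the strand of the gene were used. They exceeded opposite-strand counts by 8.28 to 8.48 times. The 4 totals of reads given to no gene (56.7% to 62.8% of reads) stayed out. Symbols came from a table of names that held 61481 of the 78932 identifiers, and all members matched. GENCODE 29 gave coordinates and may not be the authors' annotation.

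All genes were fitted with edgeR 4.0.16 (filterByExpr, TMM, robust quasi-likelihood test) in R 4.3.3. Benjamini-Hochberg adjustment ran over 12618 genes, with a threshold of 0.05. Standard errors were the log2 fold change divided by the root of F. Ratios used counts plus 0.5. Of 5 planned ratios, 3 were not computed because a count was 0 in 4 to 8 libraries. Alternatives were DESeq2 1.42.0, voom of limma 3.58.1, other scalings and filters, strand, a replicate block and each library left out. Counts of 12618 genes were simulated with the means and library sizes of these data. Log2 steps of 0.5, 1 and 2 were given to 65, 78 and 57 genes, drawn at any level. Of these, edgeR recovered 53.8%, 89.7% and 100%, and it made 8 false calls. Far fewer genes were changed there than the 57.9% called in the data, so these rates may not hold for the data or for genes with few reads. Plots used matplotlib 3.10.9.

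Replicates differed by more than sampling noise (chi-square per degree of freedom 1.82 to 5.09). The labels do not say that they were separate cultures, so p-values may measure technical spread. PCR copies may be among the reads, so floors cover counting error only. Members and lists were chosen with earlier results of these data known. The rule for naming took all members, genes fixed by role, in each list the 2 largest called changes each way, and genes with profiles most like B2M, of which not all are reported here. VIL1, COL1A1, TUBB, LSM2, MRPS18B, IRF9, IFNGR2, CIITA, the counted MHC genes and the opposite-strand reads of TAPBPL were named after their values were seen.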

Additional observations from a re-analysis of the deposited data

Results flagged for a closer look

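Of 69 groups of 4 libraries examined, 4 held a library whose gap to the nearest of the others exceeded the 95% limit of Dixon's test, and chance flags about 1 group in 20. SUSD6 stood at 15.3 CPM in DMSO replicate 1, against 21.9 to 23.0 in the other DMSO libraries. The other 3 were single libraries with 1 or 2 reads where the rest had none. These were PSMB8 at 0.241 CPM in DMSO replicate 2, PSMB10 at 0.482 CPM in that same library, and PSMB10 at 0.283 CPM in dTAGV1 replicate 1. Where the rest of a group has no read, any read is flagged, so the chance rate does not hold for such groups.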

How the results depend on the processing

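B2M passed in all 16 alternatives, with log2 fold changes from 0.82 to 1.23. PSMB9 passed in none of 15, from 0.24 to 0.47. HLA-C passed in 10 of 15. It did not with counts irrespective of strand (0.22) or DESeq2 (0.82), and leaving out each library gave 0.63 to 1.00. The cause was not tested. The number of members called was therefore 1 under those settings and 1 to 2 when a library was left out. It was also 1 when a mean of at least 100 counts was required, since HLA-C and PSMB9 were then not tested. That filter called 4120 genes in all and 1 class I-like gene, because fewer genes were tested, against 6861 to 7232 in all when a library was left out. IFNAR2 turned from a decrease to 0.0483 irrespective of strand. Differences in the ratio ranged from -0.74 to 0.06 for heavy chains to B2M and from 0.25 to 0.48 for PSMB9 to PSMB6. Their permutation tests have too few libraries to speak to stability. Scaling by library size shifted all genes by -0.07 and lowered the share of calls that were higher from 50.8% to 43.8%. The labels share replicate numbers, but deviations correlated at only -0.02 to 0.13 within a number, so they were not taken as pairs. With a replicate block, 7434 genes were called, B2M stood at 0.90 and HLA-C at 0.82. Few counted reads limit the precision of all members but B2M. Opposite-strand counts gave no value, since every count of a member was 0.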

Other observations

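Low counts in the pathway were not limited to the MHC. IRF9, which encodes a transcription factor of interferon signalling and lies on chromosome 14, was listed at 0 in all 8 libraries. IFNGR2 had 14 reads in all and CIITA 4. TAPBPL, a tapasin-like peptide editor, had 4 reads on its own strand. On its opposite strand DMSO replicates 1 to 4 had 32, 33, 20 and 27 reads, and dTAGV1 replicates 1 to 4 had 4, 11, 6 and 8. The groups did not overlap in these counts, and this difference was not tested. Whether these reads came from another gene on that strand was not examined. Among genes tested on their own strand, 50.9% likewise showed full separation of DMSO from dTAGV1 libraries in CPM. Such a gap was thus common there, and no such share is given for opposite-strand counts.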
